A study of Mus musculus with 4 samples.

Results

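The comparison described here set the first mandibular molar germs of C57BL/6 mouse embryos at embryonic day 16 (E16) against those at embryonic day 14 (E14), on 1 Agilent 2-colour array. Whole germs were pooled at each stage and total RNA was taken with Trizol; the E16 pool was labelled with Cy5 and the E14 pool with Cy3. The labels name no mutant allele and no agent: all groups are C57BL/6 germs that differ in age. The same E14 pool, always in Cy3, was also hybridised against pools of E11, E12 and E18 germs, 1 array each, so all ratios in the series share E14 and no dyes were swapped. A difference between stages and a difference between dyes therefore cannot be told apart, and 1 pool a stage gives no spread between embryos and no test. The 4 hybridisations of E14 give a technical spread only. How many germs went into a pool is not stated in the labels.

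The members were all non-control probes called well above background by the scanner software in the Cy5 or the Cy3 channel of this array. They were 24402 of 41174 probes (59.3%), after 3 more probes had no value left once outlier spots were removed, and they stood for 16392 of the 27670 genes on the array. Of these genes, 15001 were above background in both channels by the probe used, 1009 in the E16 channel only and 367 in the E14 channel only. A gene that entered through 1 channel had to be brighter there, so such genes are given as bounds ("at least N-fold"). At the edge of the flag, the lowest net Cy5 signal inside was 10.4 and the highest outside was 26.3 units, since the flag also weighs the noise of each spot.

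The first molar of the mouse passes from the cap stage to the bell stage between these days. At the cap stage a folded epithelium, organised around a signalling centre called the enamel knot, covers a condensed neural crest mesenchyme, the dental papilla. At the bell stage the epithelium has separated into layers, among them the inner enamel epithelium, which gives rise to the enamel-forming ameloblasts, and the papilla cells next to it become dentin-forming odontoblasts. The germ lies under the oral epithelium and inside the forming jaw bone. Bulk RNA reads all of these together: fewer cells of a type and less RNA per cell cannot be told apart.

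At E16, 349 genes were at least 2-fold above E14 (2.13% of the genes measured) and 296 were at least 2-fold below (1.81%), 645 in all (3.93%). The highest ratios belonged to Spink5 (a serine protease inhibitor of the upper epidermis), Ly6d, the neuropeptide gene Nts and the keratins Krt16 and Krt1. The lowest belonged to the embryonic globins Hbb-y, Hbb-bh1 and Hba-x, followed by Scx and Prrx1. Only 31 genes were 4-fold or more higher and 21 were 4-fold or more lower, and 3 and 2 passed 8-fold. On the E12 array 3.1% of measured genes passed 2-fold (0.331% above E14 and 2.76% below), and on the E18 array 8.44% did (4.19% above and 4.25% below). The median log2 ratio was 0.01, with an interquartile range from -0.21 to 0.25. For scale, the E14 signal of a gene varied over its 4 hybridisations with a median SD of 0.04 log2, and probes printed in 10 spots varied within this array with a median SD of 0.06.

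**Figure D1:**
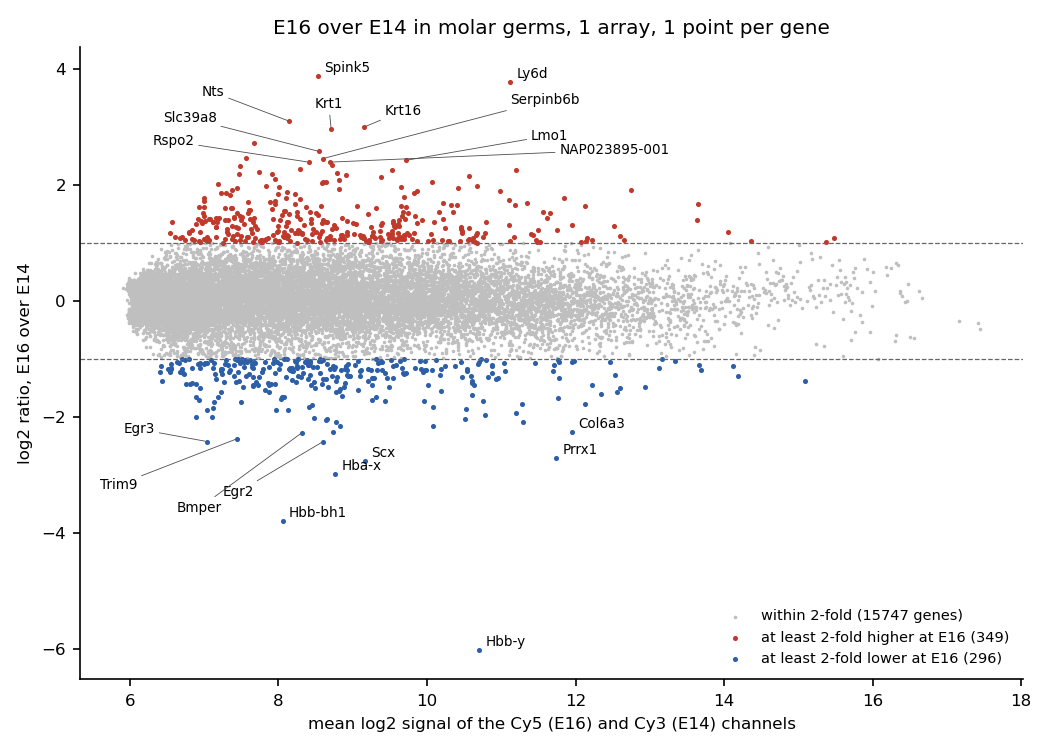
Log2 ratio of E16 over E14 (vertical axis) against the mean log2 signal of both channels (horizontal axis), 1 point per gene, 16392 genes on 1 array. Red and blue points are at least 2-fold higher (349) or lower (296) at E16, grey points are within 2-fold, and the 10 highest and 10 lowest genes above background in both channels are named; Hbb-y lies lowest at -6.03 and Spink5 highest at 3.88.

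Signal strength bore on the calls. Genes in the dimmest part of the signal range, when all genes were split into 3 equal groups, passed 2-fold in 1.19% of cases, against 6.06% in the middle and 4.56% in the brightest group. Cy5 was the brighter dye in raw units, so raw signals of the 2 channels are not equal at equal RNA: Bmp4, a BMP ligand of tooth epithelium and mesenchyme, had 1048 units in Cy5 and 495 in Cy3 and a normalised log2 ratio of -0.15. Centring the array on its median in place of the loess curve placed the median gene at 0.63, and 4257 genes above 2-fold against 41 below. Under that scaling a list's direction is read against 0.63. The medians of the BMP and TGF-beta, Wnt, mitosis, macrophage, neuron, Schwann cell, osteoclast, interferon, cholesterol and salivary lists then lay on the other side of all genes. The array shared a slide with the E18 array, and the E11 and E12 arrays were on the other, so slide and stage cannot be told apart.

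The labelled tissue was checked against its markers. The tooth epithelium genes Sp6, Shh and Msx2 and the tooth mesenchyme genes Msx1, Pax9 and Lhx8 were above background in both channels. Of 29 skeletal muscle genes, 14 were measured, among them Acta1, Myh3, Myl1 and Mylpf. The other 15, among them Myod1, Myf5, Myog, Des, Ttn and Ckm, were below background in both channels. The list therefore does not show that muscle was absent. Of 18 salivary, tongue and glandular genes 6 were measured, among them Krt36, Muc15 and Cyp2f2, which were above background in the E16 channel only. Aqp5, Muc5b and Bpifa1 were below background. Of 15 liver and yolk sac genes 6 were measured.

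Genes of the cornified layer and epidermal barrier, the set that builds the tough surface of stratified epithelium, were higher at E16. Of 49 listed genes, 31 were measured; 16 were at least 2-fold higher and none was 2-fold lower, against 2.13% and 1.81% of all genes, and the median log2 ratio was 1.01 against 0.01 for all genes. The counts of each list described after this one are read against the same shares. With median centring the list's median was 0.82 above that of all genes. Under that scaling the cytosolic ribosomal proteins lay 0.98, the dental epithelium factors 0.97 and oxidative phosphorylation 0.64 above, while other lists lay below. An offset of this size was therefore not particular to the cornified list. Of the 31, 7 were above background at E16 only. Among the 24 above background in both channels, 13 were 2-fold higher and none lower, with a median of 1.02. Another 17 were on the array but below background in both channels, among them the terminal genes Ivl, Flg and Krt2.

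Spink5 gave 2223 units at E16 and 42.3 at E14, a log2 ratio of 3.88 (14.7-fold). The size of this ratio depends on how the dim E14 channel is corrected: it was 4.91 with a normexp offset of 10 and 5.81 by the scanner's own ratio. At E18 it was 3.19, and on the E11 and E12 arrays Spink5 was not above background in Cy5. The E14 value was steady over its 4 hybridisations (SD 0.025 log2). Spink5 was therefore high on both late arrays.

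Ly6d, a small GPI-anchored surface protein of keratinocytes, gave 13340 units at E16 and 363 at E14, a log2 ratio of 3.77 (13.7-fold). It stood at -2.19 at E11, -2.44 at E12 and 0.95 at E18. E14 itself read higher for Ly6d on the E16 array, 8.60 log2 against at most 8.04 on the other 3. Set against the mean of E14 over 4 hybridisations, taken on the scale of the loess ratios and not of these readings, the ratio was 4.40.

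Krt1, the suprabasal keratin of epidermis, gave 1846 units at E16 and 83.3 at E14, a log2 ratio of 2.96 (7.80-fold). At E18 it was back near E14, at 0.24. Its partner Krt10 stood at 1.41 at E16 and 0.73 at E18. Lypd3, a surface protein of keratinocytes, stood at 1.90 and then 1.54, so not every gene of the list came back toward E14 at E18. The list's median over E14 was -0.16 on the E12 array, 1.01 here and 0.06 on the E18 array. All 3 medians are over the 31 genes measured on the E16 array. Of these, 7 were above background there at E16 only, so the choice of genes itself leans toward a high E16 value. On the E18 array 3 of the 31 were 2-fold higher. The share of all genes measured on that array, which is another set, was 4.19%.

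Krt4, a keratin of the oral and oesophageal lining, was not well above background for E14 on any of its 4 hybridisations and was at least 3.43-fold higher at E16, with 307 units against 28.2. On the E18 array it was not above background in either channel. Serpinb12 was likewise not above background for E14 and at least 4.06-fold higher at E16, but its 2 probes read 0.33 and 2.02. It was above background in the E18 pool as well, with no E14 level to set it against. The oral keratin Krt13 stood at 1.01 at E16 and -0.28 at E18.

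The stress and wound keratins, made by epithelium of mucosa, appendages and wounds, were higher as well. Krt16 gave 2558 units at E16 and 117 at E14, a log2 ratio of 2.99 (7.96-fold), and 0.34 at E18. Krt6a read 2.15 at E16 and -0.20 at E18, and Krt6b 2.04 and -0.43. Krt6a and Krt6b are near-identical copies, so their signals are not cleanly separable. The E14 reading of Krt6a was higher on this array than on the other 3 (8.89 log2 against at most 8.38). Krt17 and Krt75 lay within 2-fold, at 0.38 and 0.32.

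Among the basal and simple keratins, 3 of 9 measured genes were 2-fold higher, none 2-fold lower, and the median was 0.52. Krt5, the basal keratin of stratified epithelium, gave 122900 units at E16 and 17680 at E14, with a log2 ratio of 1.09. Its partner Krt14 stood at 0.48. Krt15, a keratin of basal progenitor cells, stood at 1.66 at E16 but -1.20 at E18, more than 2-fold on either side of E14. Krt23 stood at 2.35 and 0.62.

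The plot of named genes by stage sets these courses side by side. Among genes above background in both channels and at least 2-fold above both E14 and E18, the 6 with the largest E16 ratio were Ly6d, Krt16, Krt1, Krt23, Fam25c and Cstdc6. Fam25c stood at 2.22 at E16 and 0.25 at E18, and Cstdc6, a cystatin-like gene, at 2.20 and 0.32. The oral lining keratin Krt13 was likewise higher at E16 than on the E18 array, and the part of oral lining in the result was not tested.

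**Figure D2:**
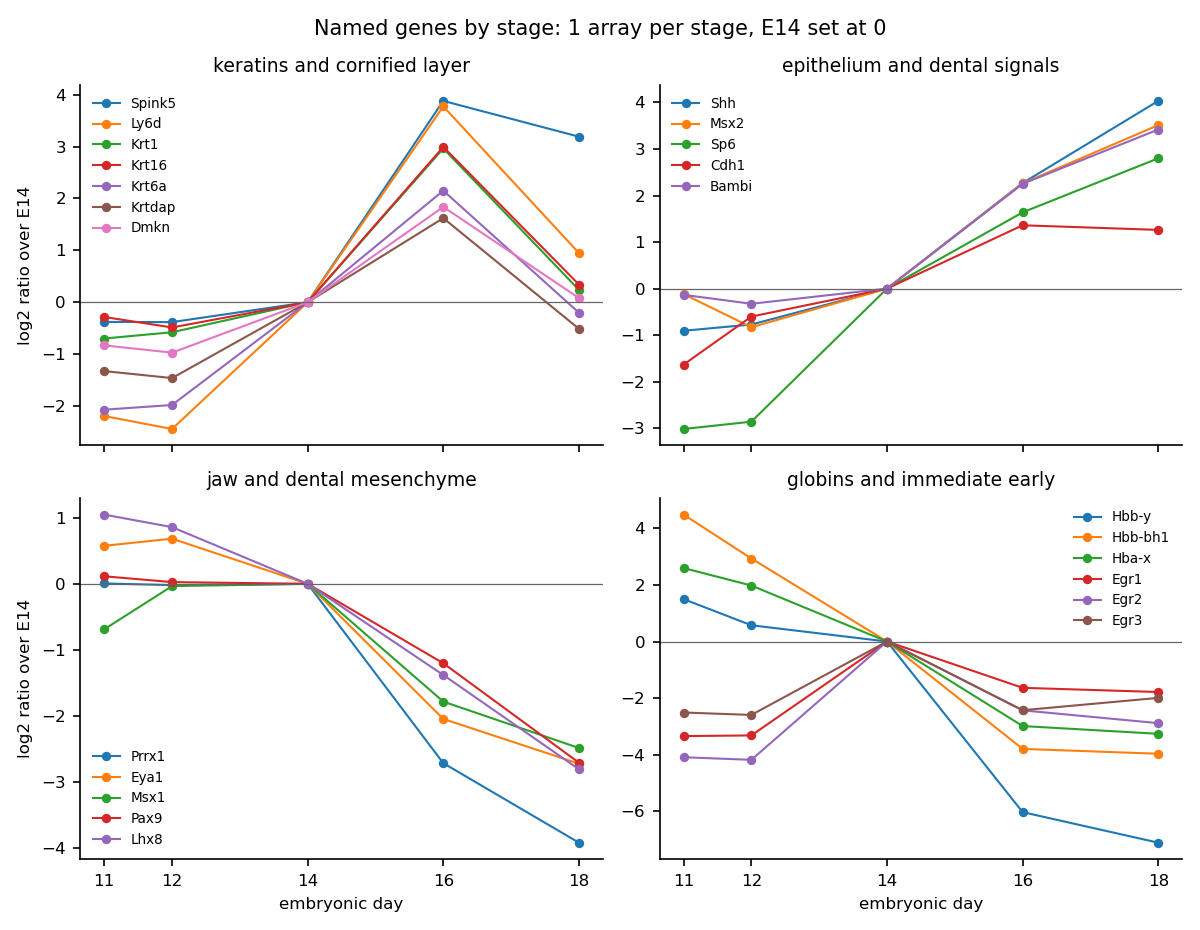
Log2 ratio over E14 (vertical axis) by embryonic day (horizontal axis) for named genes in 4 panels, 1 array per stage with E14 set at 0; lines join the stages of a gene. Krt1 and Krt16 peak at E16 (2.96 and 2.99) and are near 0 at E18, Shh and Msx2 are higher again at E18 (4.03 and 3.51), and Prrx1 and the embryonic globins lie below E14 on both late arrays. All stages share the same E14 pool, and Spink5, Krtdap and Dmkn at E11 and E12, Shh and Egr2 at E11, Hbb-bh1 at E18 and Egr3 on these 3 arrays are fitted values of genes not above background in Cy5 there.

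Several of these genes are neighbours in the genome. Of 322 higher genes that could be placed among 13273 measured protein-coding genes, 85 (26.4%) had another higher gene among the 2 nearest measured genes on either side, against 8.86% of all measured genes. For lower genes the shares were 6.37% and 5.96%. The runs of 3 or more higher genes included Krt6b, Krt6a, Krt5, Krt1 and Krt4 on chromosome 15, Krt36, Krt13 and Krt15 on chromosome 11, and Sbsn, Dmkn and Krtdap on chromosome 7. Gene order came from RefSeq (GRCm38.p6), and neighbours of 1 family can share probe sequence.

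The chromosome 7 run holds 3 small secreted proteins of differentiating keratinocytes. Krtdap read 892 units at E16 and 113 at E14 (log2 ratio 1.62), Dmkn 716 and 76.0 (1.84) and Sbsn 1321 and 268 (1.02). At E18 the ratios were -0.51, 0.08 and -0.13, so all 3 were near or below E14 there. Promoter windows of 300 bases, from 250 before to 50 after the start, are shown for these 3, and for Sprr1a, a cornified envelope protein (log2 ratio 1.03), and Lypd3 (1.90), as members of the cornified list that were higher at E16. The last pair was chosen after the motif search, Sprr1a as a window with both motifs marked here and Lypd3 as one with neither. They are from RefSeq, build GRCm38.p6, and capitals mark TGANTCA, the AP-1 site, and TATAAA, the TATA box, where found.
Sbsn (chr7:30751221-30751520, plus strand): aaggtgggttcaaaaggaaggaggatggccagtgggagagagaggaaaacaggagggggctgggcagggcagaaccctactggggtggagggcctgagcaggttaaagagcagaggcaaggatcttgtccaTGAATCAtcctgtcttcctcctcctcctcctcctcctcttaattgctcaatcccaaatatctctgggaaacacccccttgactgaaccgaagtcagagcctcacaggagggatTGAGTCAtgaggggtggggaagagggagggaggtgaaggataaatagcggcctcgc
Dmkn (chr7:30763506-30763805, plus strand): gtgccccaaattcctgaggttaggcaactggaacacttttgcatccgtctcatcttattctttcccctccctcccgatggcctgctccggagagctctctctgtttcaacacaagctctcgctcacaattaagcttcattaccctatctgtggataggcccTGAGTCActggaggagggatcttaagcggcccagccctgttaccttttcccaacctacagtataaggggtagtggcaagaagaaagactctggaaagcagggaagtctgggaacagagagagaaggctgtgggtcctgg
Krtdap (chr7:30787655-30787954, plus strand): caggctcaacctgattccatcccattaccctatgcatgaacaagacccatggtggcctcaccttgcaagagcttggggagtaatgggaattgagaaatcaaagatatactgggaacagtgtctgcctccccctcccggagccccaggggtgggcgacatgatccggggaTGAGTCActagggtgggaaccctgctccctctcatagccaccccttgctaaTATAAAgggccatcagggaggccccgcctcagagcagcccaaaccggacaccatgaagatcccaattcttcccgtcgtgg
Sprr1a (chr3:92485832-92486131, minus strand): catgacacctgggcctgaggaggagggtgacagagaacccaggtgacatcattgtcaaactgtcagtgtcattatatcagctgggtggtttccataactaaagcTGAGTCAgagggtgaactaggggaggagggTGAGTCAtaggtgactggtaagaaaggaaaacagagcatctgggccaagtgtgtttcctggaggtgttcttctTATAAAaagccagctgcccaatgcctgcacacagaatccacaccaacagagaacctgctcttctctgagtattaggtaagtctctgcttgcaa
Lypd3 (chr7:24636320-24636619, plus strand): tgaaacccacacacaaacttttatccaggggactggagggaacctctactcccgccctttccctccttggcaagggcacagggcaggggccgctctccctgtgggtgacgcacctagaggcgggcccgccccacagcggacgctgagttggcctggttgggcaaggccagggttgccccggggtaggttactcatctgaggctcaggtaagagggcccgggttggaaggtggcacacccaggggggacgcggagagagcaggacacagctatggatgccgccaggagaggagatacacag

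RefSeq windows were found for 387 of the 645 genes that passed 2-fold. The AP-1 letters TGANTCA, which read the same on both strands, were in 10.9% of 238 windows of higher genes, 4.70% of 149 of lower genes, 5.05% of 10796 of all measured genes and 7.93% of all 27025 genes with a window. They were in 6 of 10 windows of the 2-fold higher genes of the cornified list. The stress keratins are not among the 10. TATAAA, on either strand, was in 14.3%, 12.8%, 7.92% and 14.2% of the same sets and in 5 of the 10. Those 10 windows were also poor in GC (median 51.2%) against 60.7% for all measured genes, and base composition bears on how often a motif of these letters occurs. Searched on both strands, the AP-2 letters GCCNNNGGC, the letters AGATAAG of GATA factors and the CRE letters TGACGTCA were in 22.3%, 2.10% and 2.10% of windows of higher genes, against 24.8%, 1.76% and 3.24% of all measured genes. A match is a run of letters in a window and was not tested for binding.

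Adhesion and identity genes of epithelium were higher at E16 as a whole, by smaller amounts. The proteins of the desmosome and hemidesmosome list fasten epithelial cells to each other and to the basement membrane. All 19 of its measured genes had ratios above 0 and 7 were at least 2-fold higher, with a median of 0.71. Of the 19, 2 were above background at E16 only and so had to read higher. Among the 17 above background in both channels, 7 were 2-fold higher, with a median of 0.85. By the median of a gene's probes, 4 of the 19 were 2-fold higher, with a median of 0.44. Perp, a desmosome-associated membrane protein, gave 22210 units at E16 and 2130 at E14 (log2 ratio 1.91). Col17a1, the hemidesmosome collagen, stood at 1.69 and Pkp1, a plakophilin of desmosomes, at 1.29. The desmoglein Dsg1a stood at 1.56 and Dsp, which links desmosomes to keratins, at 1.0.

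In the epithelial identity and junction list, 5 of 25 measured genes were 2-fold higher and none 2-fold lower, with a median of 0.43. Among the 23 above background in both channels, 5 were higher, with a median of 0.43. By the median of a gene's probes, 3 of the 25 were higher, with a median of 0.37. Cdh1, E-cadherin, gave 2838 units at E16 and 444 at E14 (1.36), and its ratio at E18 was 1.26. Epcam stood at 1.31 and the tight junction claudin Cldn1 at 1.32. Trp63, the master regulator of stratified epithelium, stood at 1.09 by its brightest probe, while its 3 probes ranged from -0.07 to 1.09. The claudins Cldn3 and Cldn4 were at -0.18 and -0.28.

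Of 21 measured dental epithelium factors, 7 were at least 2-fold higher and 1 was lower, with a median of 0.59. Among the 20 above background in both channels, 6 were higher and 1 lower, with a median of 0.57. Shh, the signal of the enamel knot and later of the inner enamel epithelium, gave 1067 units at E16 and 80.8 at E14, a log2 ratio of 2.27 (4.82-fold). It was not above background in Cy5 at E11 and stood at -0.77 at E12 and 4.03 at E18. Msx2, a homeobox gene of the enamel knot and later epithelium, gave 2620 and 213 units (2.26) and 3.51 at E18. Sp6 (epiprofin), needed for ameloblast development, gave 13260 and 1584 units (1.64) and 2.80 at E18. These 3 were higher again on the E18 array.

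Cldn10, a claudin of tight junctions, stood at 1.34 at E16. Isl1, a LIM homeobox gene of incisor epithelium and of neurons, was not above background for E14 on any hybridisation and at least 3.05-fold higher at E16, with 267 units; on the E18 array it was below background in Cy5 too. Lgr5, an R-spondin receptor of epithelial stem cells, was the 1 gene 2-fold lower in the list, at -1.06, and stood at -2.74 at E18.

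The enamel knot and epithelial signal list was mostly within 2-fold: 1 of 17 measured genes (Shh) was higher and 1 (Lef1) lower, with a median of 0.29. Lef1, a transcription factor of the Wnt pathway, stood at -1.09 at E16 and -1.81 at E18. Fgf20, a knot ligand, was at -0.95 with weak signals of 67.8 and 92.3 units. Sostdc1, a secreted BMP and Wnt inhibitor around the knot, was at 0.93, and Edar, the ectodysplasin receptor, at 0.86. Bmp2 (0.10), Wnt10b (0.05) and Fst (0.04) lay close to E14.

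Enamel genes were in part below background. Of 25 listed ameloblast genes 17 were measured, 4 were 2-fold higher and none lower, with a median of 0.25. Of the 17, 4 were above background at E16 only. Among the 13 above background in both channels, 3 were higher, with a median of 0.25. Enam, Mmp20 and Amtn were below background. Ambn, an enamel matrix protein, was not above background for E14 and at least 1.76-fold higher at E16 with 138 units. Amelx, the main enamel protein, stood at 0.10 by its brightest probe and 1.42 by the other. Satb1, a chromatin organiser, stood at 2.03 (1218 and 113 units) and 3.34 at E18, and Adgrf4 at 1.81.

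Of 24 measured odontoblast, dentin and bone matrix genes, 5 were 2-fold higher and 2 lower, with a median of 0.28. Among the 22 above background in both channels, 4 were higher and 2 lower, with a median of 0.28. Omd, osteomodulin, a proteoglycan of mineralising tissue, gave 1447 units at E16 and 132 at E14, a log2 ratio of 2.07, and 3.11 at E18. Ibsp, bone sialoprotein, gave 764 and 72.7 units (1.96), and Smpd3, a sphingomyelinase needed for mineralisation, stood at 1.61. Dspp, a dentin matrix protein, was not above background for E14 and at least 2.33-fold higher at E16, with 166 units. It was not above background in either channel of the E18 array. Col1a1 and Col1a2, the collagen I chains, stood at -0.41 and -0.55. Nes (nestin) and Enpp1 were the lower pair, at -1.20 and -1.04.

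Mmp13, a collagenase of bone-forming and bone-resorbing tissue, had the largest bound of any gene seen in 1 channel: it was not above background for E14 on any hybridisation and at least 6.61-fold higher at E16, with 757 units against 34.8. It was above background in the E18 pool too. The other 14 measured osteoclast and RANK genes were within 2-fold, among them Ctsk at 0.53, Acp5 at 0.47 and Csf1r at -0.11.

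Jaw and dental mesenchyme factors, which pattern the jaw and make its mesenchyme able to form teeth, leaned lower. Of 29 measured genes, 10 were at least 2-fold lower and 2 higher, and the median was -0.29. Under median centring the median was 0.11, which was 0.52 below that of all genes, and 7 genes were 2-fold higher and 2 lower. Prrx1, a homeobox gene of craniofacial mesenchyme, gave 2157 units at E16 and 5537 at E14, a log2 ratio of -2.72 (6.58-fold lower), and stood at -3.92 at E18. Its 6 probes ranged from -2.72 to -0.39.

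Eya1, a transcriptional coactivator, gave 291 units at E16 and 576 at E14, a log2 ratio of -2.05. It was above E14 at E12, at 0.68, and its 2 probes read -2.05 and -0.14 at E16. Msx1, the mesenchymal gene needed for passage beyond the bud stage, gave 4051 and 5286 units (-1.78), and Pax9, needed at the same step, was at -1.20. Lhx8 stood at -1.38. At E18 these 3 stood at -2.49, -2.71 and -2.81.

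The mesenchyme did not read lower throughout. Barx1, a homeobox gene of molar mesenchyme, was at -0.29, Twist1 at 0.05 and Runx1 at 0.36. Dlx5, a homeobox gene of the lower jaw and of mineralising cells, was higher at 1.15. Alx1 was higher at 1.04 with only 177 and 35.3 units and was not above background in Cy5 at E18.

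**Figure D3:**
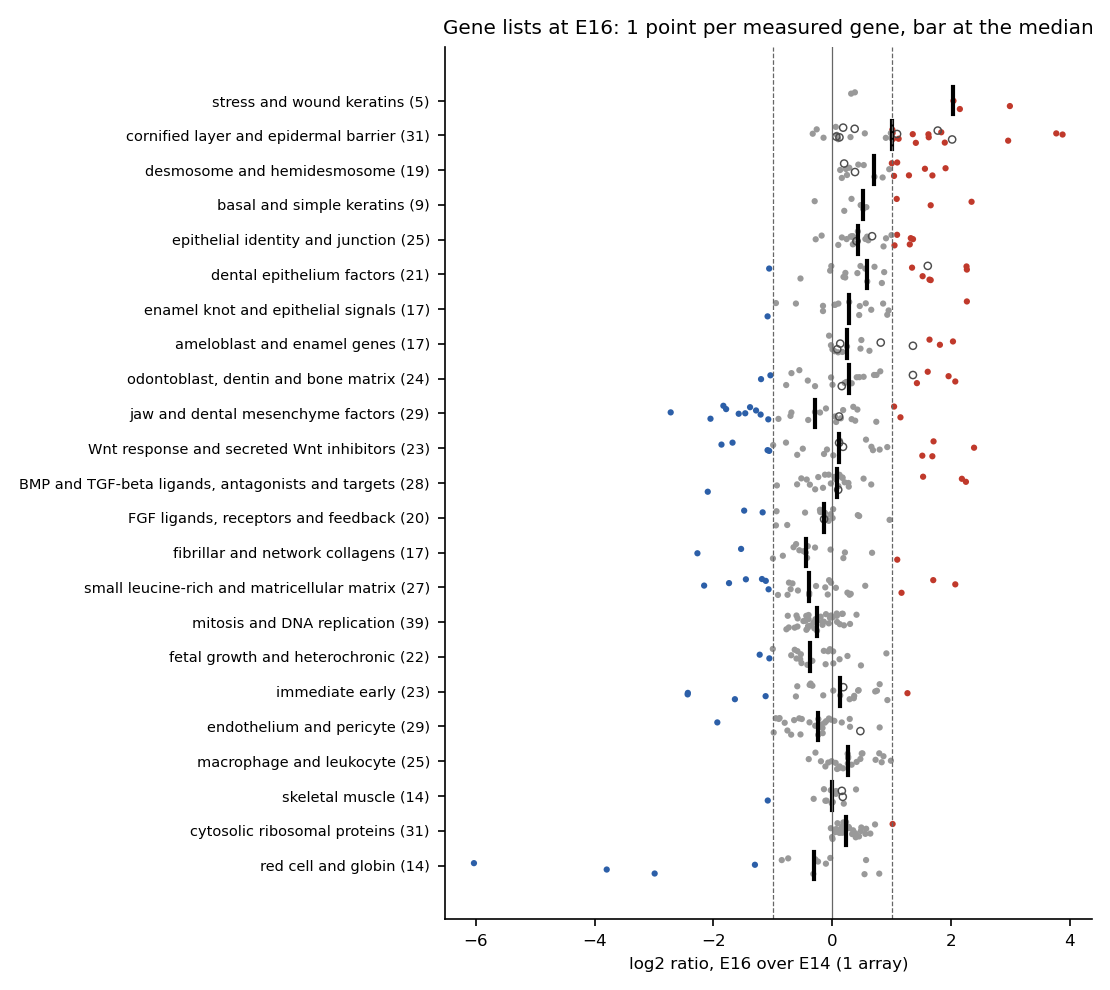
Log2 ratio of E16 over E14 on 1 array (horizontal axis) for measured members of 23 gene lists (vertical axis, number measured in brackets); 1 point per gene, red or blue past 2-fold, open circles above background in 1 channel only, black bar at the list median. Stress keratins (median 2.04) and cornified layer genes (1.01) lie highest. With median centring the jaw mesenchyme, collagen, matricellular, FGF, mitosis, fetal growth, endothelium and red cell medians turn from below 0 to above 0, and those of the Wnt, BMP, mitosis and macrophage lists change side relative to all genes.

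Of the signalling pathways, Wnt genes were split. Of 23 measured genes, 4 were 2-fold higher and 4 lower; the median of 0.12 was above that of all genes by 0.11 and, with median centring, below it by 0.08. Rspo2, a secreted enhancer of Wnt signalling, gave 1206 units at E16 and 84.4 at E14, a log2 ratio of 2.39. It was also above E14 at E11 (2.23), E12 (1.15) and E18 (2.20), so the E14 pool read lowest on every array. As that pool was always in Cy3, stage, dye and pool cannot be told apart. Wif1, a secreted Wnt inhibitor, stood at 1.69, Sfrp4 at 1.71 and the transcription factor Tcf7 at 1.52. Other secreted inhibitors were lower: Frzb at -1.86 and Sfrp2 at -1.68. Axin2, the feedback target, stood at 0.02.

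Of 28 measured BMP and TGF-beta genes, 3 were 2-fold higher and 1 lower, against 2.13% and 1.81% of all genes. Bambi, a pseudoreceptor that dampens BMP and TGF-beta signals, gave 8328 units at E16 and 673 at E14 (log2 ratio 2.25) and 3.42 at E18. Inhbb, the activin B subunit, stood at 2.18 and Inhba, the activin A subunit, at -2.09, with 1928 units at E16 and 3296 at E14. The 2 probes of Inhbb read 0.17 and 2.18. Id4, an inhibitor of helix-loop-helix factors, stood at 1.53, while Id1, Id2 and Id3 lay at 0.53, 0.10 and -0.02. The list's median of 0.08 changed side relative to all genes with median centring.

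No FGF gene of 20 measured was 2-fold higher and 2 were lower, whereas with median centring 2 were higher and 0 lower. Fgf18 stood at -1.48 and Fgf8, a ligand of the early oral epithelium, at -1.17 with 65.9 and 108 units. Fgf8 was far higher on the earlier arrays, at 2.96 at E11 and 2.58 at E12. Fgf3 and Fgf10, ligands of the dental papilla, stood at -0.46 and 0.43, and Fgfr2, their epithelial receptor, at 0.97 with probes from -0.02 to 0.97.

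None of 12 hedgehog, 17 Notch or 9 ectodysplasin and NF-kB genes passed 2-fold. The hedgehog receptor and target Ptch1 stood at 0.81, and Gli1, the other standard target, at -0.06. The Notch ligands and receptors lay between -0.69 (Notch3) and 0.86 (Notch2). Eda, the ectodysplasin ligand, stood at 0.33.

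Retinoic acid genes held large values on both sides, with 3 of 17 measured genes 2-fold higher and 2 lower. Cyp26a1 and Cyp26b1 both break down retinoic acid: Cyp26a1 gave 2248 and 199 units (2.14) and Cyp26b1 812 and 1554 units (-2.17). Of the enzymes that make it, Aldh1a3 stood at 2.05 and Aldh1a2 at -1.16. At E18 all 4 were further from E14 on the same side, at 3.31, -3.74, 3.03 and -1.69.

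Matrix genes of 2 lists leaned lower by the loess ratios. Of 17 measured collagens, 2 were 2-fold lower and 1 higher, with a median of -0.44 (-0.09 relative to all genes with median centring). With median centring 4 collagens were 2-fold higher and 1 lower. Col6a3, a chain of the microfibrillar collagen VI, gave 3000 units at E16 and 5544 at E14 (-2.27), although its 3 probes ranged from -2.27 to -0.30. Col6a2 stood at -1.53, and its 2 probes read -1.53 and -0.63. Col14a1 was the higher one, at 1.1. In the list of small proteoglycans and matricellular proteins, 6 of 27 were lower and 3 higher, with a median of -0.39 (-0.16 relative to all genes with median centring). With median centring 6 of that list were higher and 1 lower. Prelp stood at -2.15, Fbn2 (fibrillin 2) at -1.74 and Postn (periostin) at -1.45. The 2 probes of Postn read -1.45 and -0.39. Ogn, osteoglycin, was higher at 1.17 beside Omd. Scx, the tendon transcription factor, gave 332 units at E16 and 1052 at E14, a log2 ratio of -2.77 (6.81-fold lower). It was the 1 lower gene of 11 measured in the cartilage and tendon list, whose median was -0.04. In that list 3 genes were 2-fold higher, Matn4 (1.75), Sox9 (1.49) and Col9a3 (1.24).

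The embryonic globins, made by the first, yolk sac-derived red cells, had the lowest values of the array. Hbb-y gave 313 units at E16 and 8995 at E14, a log2 ratio of -6.03 (65.4-fold lower). It stood at 1.5 at E11, 0.57 at E12 and -7.11 at E18. Hbb-bh1 stood at -3.79 and Hba-x at -2.99, with 4.49 and 2.60 at E11. The adult-type globins lay much closer to E14, Hba-a1 at -0.85 and Hbb-bt at -0.32. Globin copies are near-identical in sequence, so signal between them is not cleanly separable. Of 14 measured red cell genes, 4 were 2-fold lower and none higher, or 3 lower and 3 higher with median centring.

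Other cell types in the germ were mostly within 2-fold. All 29 endothelial and pericyte genes were measured and 1 was 2-fold lower: Pdgfrb, the receptor of pericytes and mesenchyme, at -1.93. Pecam1, Cdh5 and Kdr stood at -0.16, -0.38 and -0.80. None of 25 macrophage and leukocyte genes passed 2-fold, from Coro1a at -0.39 to the stem cell factor receptor Kit at 0.99. Of 14 muscle genes, Myl4 alone passed, at -1.08. Among 21 neuron genes 4 were higher and 1 was lower. The neuropeptide genes Nts (3.09, with 1270 and 44.8 units) and Tac1 (1.66), the receptor Ntrk2 (1.74) and Isl1 were higher. The pan-neuronal Tubb3, Snap25 and Stmn2 stood at 0.14, 0.29 and 0.35. Of the 15 neuron genes above background in both channels, 3 were higher and 1 lower.

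Immediate early genes, which are transcribed within minutes of growth factor signals, were mostly within 2-fold: of 23 measured, 1 was 2-fold higher and 4 were lower. Egr2 gave 242 units at E16 and 641 at E14 (-2.43), Egr3 61.9 and 225 (-2.43) and Egr1 400 and 570 (-1.64). Nr4a1, an orphan nuclear receptor, was the fourth lower gene, at -1.12, and Ccn2, a matricellular growth factor, the higher one, at 1.27. The Egr genes also lay below E14 on the remaining 3 arrays, so the E14 pool read highest for all 3. That pool was always in Cy3, so stage, dye and pool cannot be told apart here. Egr1 stood at -3.34 at E11, -3.32 at E12 and -1.79 at E18. The AP-1 genes Fos, Jun and Junb stood within 2-fold, at 0.93, 0.80 and 0.29.

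Proliferation genes lay slightly below E14. None of 39 measured mitosis and replication genes passed 2-fold; 10 had ratios above 0 and the median was -0.26. With median centring the median was 0.03 above that of all genes, so no direction holds under both scalings. Mki67 stood at -0.75 and Ccne1 at -0.77. Of the D cyclins Ccnd2 stood at -1.12, and at 0.16 with median centring, while Ccnd1 stood at 0.36. Among fetal growth genes 2 of 22 were lower, Hmga2 (-1.22) and Grb10 (-1.06; 0.07 with median centring).

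A small group of genes rests on the E14 reading of this array alone. Cacna1a, AK037592 and TC1468120 read -1.75, -1.44 and -1.23. Among genes above background in both channels, they were the only ones more than 2-fold below both E14 and E18. For these, E14 read 7.70, 7.24 and 6.95 log2 here against at most 6.02, 6.11 and 5.99 on the other 3 arrays. Set against the mean of E14 over 4 hybridisations, the ratios were -0.28, -0.47 and -0.41, all within 2-fold. That mean is on the scale of the loess ratios and not of the E14 readings given here. Six6 behaved likewise, above background for E14 on 1 of 4 arrays. The 3 high readings of one pool do not recur in its other hybridisations.

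**Figure D4:**
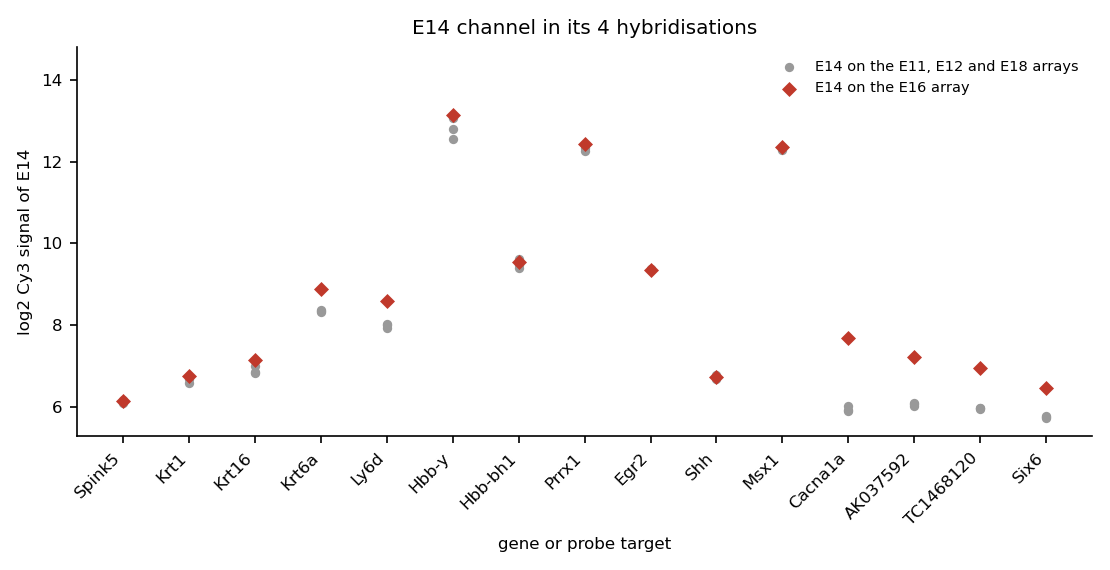
Log2 Cy3 signal of the single E14 pool (vertical axis) in its 4 hybridisations for 15 named genes or probe targets (horizontal axis); red diamonds are the E16 array and grey circles the E11, E12 and E18 arrays. Spink5, Egr2, Shh and Prrx1 repeat closely, Ly6d and Krt6a are higher on the E16 array, and Cacna1a, AK037592, TC1468120 and Six6 stand well above their other 3 readings there.

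Probes of 1 gene gave a further check. Among 5727 genes with at least 2 member probes, the median SD between probes was 0.16 log2, and no gene had 1 probe 2-fold higher and another 2-fold lower. Of the 257 such genes that passed 2-fold, all probes had the same sign in 222 and all passed 2-fold in 61. Slc39a8, a zinc transporter among the 10 highest genes at 2.57, ranged from 0.14 to 2.57 over 3 probes, so its value depends on the probe read. Egr3 read -2.43 and -0.40, Aldh1a3 2.05 and 0.43, Satb1 2.03 and 0.87, Sp6 1.64 and 0.81, and Hbb-bh1 -3.79 and -2.15 by their 2 probes.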

How the data were processed

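Pools of whole first molar germs were compared on 4 Agilent 2-colour arrays, E14 in Cy3 on each. Per the file headers, the authors' scanner files were made with Agilent Feature Extraction 10.5.1.1 and give spot intensity in each channel, background, flags and a log10 ratio of Cy5 over Cy3, for an array design on mouse build mm7. The deposited value table holds the same log10 ratio (100% of 44996 values within 0.005, median 0). Mean intensities were corrected with normexp (offset 50) and normalised by loess to log2 ratios (limma 3.58.1, R 4.3.3), with control spots at weight 0 in the loess fit and outlier-flagged spots left out; spots were averaged per probe and a gene took its brightest member probe. Python 3.11.15 and pandas 2.3.3 were used after that. The 4 readings of E14 are its normexp-corrected Cy3 signals, quantile normalised over the 4 arrays. Bounds and the mean of E14 over 4 hybridisations use channel signals rebuilt from loess ratios after quantile normalisation of mean signals between arrays. The readings and the mean are therefore on different scales. Names came from RefSeq; 2797 member genes keep the array's name. For bounds, the signal of the bright channel was divided by the dim probe's own signal or by the lowest signal above background, whichever was larger; in 1376 genes seen in 1 channel, the bound differed from the fitted ratio in 464, by at most 0.24 log2. The steps were tested on simulated data.

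The genes named are the 10 highest and 10 lowest ratios above background in both channels, the 6 largest bounds each way, up to 3 members at each end of 42 lists at least 1.5-fold from E14, up to 6 genes each way that were above background in both channels and past 2-fold against both E14 and E18, and a fixed set; other list members are given as examples chosen after their values were seen. The members and lists were chosen with earlier results of these data known. With 1 array and 1 pool a stage, no test was made; 0 saturated spots and 107 outlier spots were flagged on this array. Alternatives were no background correction, an offset of 10, the scanner's ratio, median centring, both channels above background, the median of a gene's probes, and the mean of E14 over 4 hybridisations. Some genes of the lists are not reported here by name.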

Additional observations from a re-analysis of the deposited data

Results flagged for a closer look

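The E14 pool was read 4 times, and 10 of the 187 named genes had 1 reading far from the other 3, where chance alone gives about 1 in 20. Of these, 6 lay on the array described here. Most named genes were chosen by their ratio on this array. Cacna1a, AK037592, TC1468120 and Six6 were named for low ratios, which a high E14 reading there produces. The number on this array therefore cannot be read as a property of the array. E14 read 8.60 log2 for Ly6d (median of the other readings 8.03), 8.89 for Krt6a (8.36), 7.70 for Cacna1a (5.98), 7.24 for AK037592 (6.09), 6.95 for TC1468120 (5.99) and 6.48 for Six6 (5.77). The other 4 lay on other arrays and were small: 6.84 for Serpinb6b and 7.0 for Fgf3 on the E18 array, 5.85 for Mmp13 on the E12 array and 5.87 for Dspp on the E11 array.

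Some genes passed 2-fold on one side of E14 here and on the other side on another array. The difference was not tested, there being 1 array a stage, and both ratios share the E14 pool. Epithelial genes below E14 at E12 and above it at E16 were Ly6d (-2.44 and 3.77), Lmo1 (-1.51 and 2.42), Krt6a (-1.98 and 2.15), Krt6b (-1.40 and 2.04), Krt23 (-1.65 and 2.35), Krt15 (-1.97 and 1.66), Krt5 (-2.16 and 1.09), Col17a1 (-1.64 and 1.69) and Sp6 (-2.86 and 1.64). Krt15 was also -1.20 at E18. At E12 the Cy5 signals of Krt23, Omd, Ibsp, Matn4 and Sfrp4 were not above background, so their values there are fitted ones.

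Matrix and mineral genes with the same order were Omd (-1.87 and 2.07), Ibsp (-1.18 and 1.96), Smpd3 (-1.66 and 1.61), Col14a1 (-1.5 and 1.1), Ogn (-2.94 and 1.17) and Matn4 (-1.24 and 1.75). Signalling and other genes with it were Sfrp4 (-1.04 and 1.71), Wif1 (-2.35 and 1.69), Ntrk2 (-1.08 and 1.74), Hspa1a (-1.09 and 1.6) and Aldh1a3 (-1.24 and 2.05). The opposite order, above E14 at E12 and below it at E16, was seen for Hbb-bh1 (2.93 and -3.79), Hba-x (1.98 and -2.99), Fgf8 (2.58 and -1.17), Hmga2 (1.06 and -1.22) and Cyp26b1 (1.17 and -2.17).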

How the results depend on the processing

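The 645 genes past 2-fold (349 higher, 296 lower) became 1238 (628 and 610) with a normexp offset of 10, 2662 (1384 and 1278) with the scanner's ratio, and 4298 (4257 and 41, or 99% higher against 54.1%) with median centring. Without background correction 467 genes were lower. The other settings, and the total and higher counts without background correction, stayed within 1.5 times. All 349 higher genes were again past 2-fold without background correction, with the offset of 10 and with median centring, and 345 with the scanner's ratio; of the 296 lower genes 295 were so under each of these but median centring, where 41 were. The 111 named genes past 2-fold kept their sign under each setting that gave them a value (100 of the 111 where both channels had to be above background), except Ccnd2 (0.16) and Grb10 (0.067) with median centring. Of them, 25 were no longer past 2-fold on the same side with median centring, 11 with the median of a gene's probes, 6 with the mean of E14, 2 with the scanner's ratio and 0 without background correction or with the offset of 10. The cause was not tested. Signal over background limits dim genes, and 1 array leaves no spread between embryos. No paired analysis was possible because each stage has 1 array and the replicate numbers pair no samples.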

Other observations

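Housekeeping and stress genes not described above lay mostly within 2-fold by the loess ratios, which depends on that scaling. Of 31 cytosolic ribosomal protein genes, 29 had ratios above 0, 1 passed 2-fold (Rps7, 1.02) and the median was 0.23. With median centring all 31 were 2-fold higher, with a median of 1.60 against 0.63 for all genes. So were 24 of 25 oxidative phosphorylation, 13 of 22 hypoxia and glycolysis, 11 of 14 heat shock and 3 of 21 cholesterol synthesis genes. None of 25 oxidative phosphorylation genes passed 2-fold, with a median of 0.10, and none of 21 cholesterol synthesis genes did, with a median of -0.15 that changed side relative to all genes with median centring. Among 22 hypoxia and glycolysis genes Bnip3, a mitophagy receptor, passed at 1.26, and Ldha, lactate dehydrogenase A, stood at 0.99.

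Of 14 heat shock and chaperone genes 2 were higher, the small heat shock protein Hspb1 at 1.65 and Hspa1a at 1.6, the latter with 4 probes from 0.36 to 1.6. Of 19 interferon and MHC class I genes 2 were higher, H2-T23 at 1.52 and H2-K1 at 1.05. The 3 probes of H2-K1 ranged from 0.30 to 1.05. H2-T23 and H2-K1 are members of a family of close copies. Of 21 metalloproteases and their inhibitors, Mmp13 was higher and Timp1, an inhibitor, lower at -1.45. The 3 probes of Timp1 ranged from -1.45 to -0.52. Of 4 measured Hox genes Hoxb3 was lower at -1.55, and 13 of the 17 listed were below background. Among liver and yolk sac genes Afp was not above background at E16 and at least 2.46-fold lower than at E14. Cyp2f2, a cytochrome P450 of airway epithelium, was not above background for E14 and at least 4.97-fold higher at E16, and on the E18 array neither channel was above background.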
